A study of Mus musculus with 8 samples.

Results

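The mitotic cell cycle genes are a named list of 40 genes that act in G2 and M phase, from the cyclin-dependent kinase Cdk1 to the proliferation marker Mki67. They were taken by symbol from 52636 Ensembl genes counted in the liver RNA of 8 mice. Each of the 40 symbols mapped to 1 gene of the GRCm38 annotation, and 37 of them were among the 15248 genes with enough counts to test. The list was proposed with the difference between AAV8-AGXT and AAV8-GFP livers in view, so the differences of its members are given as a description and carry no test.

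All 8 mice were wild-type C57BL/6J males, 1 library per mouse. At 7 weeks of age, 4 mice received AAV8-TBG-GFP and 4 received AAV8-TBG-AGXT, an adeno-associated virus carrying GFP or human AGXT under the TBG promoter, which is active in hepatocytes. From 8 weeks of age both groups ate the MASH diet, rich in fat, cholesterol and fructose, for 24 weeks, so the controls carried both the vector and the diet. AGXT is the peroxisomal enzyme that clears glyoxylate, the precursor of oxalate. Mice are named by animal number, with 303, 311, 314 and 315 in the AAV8-GFP group and 308, 309, 316 and 319 in the AAV8-AGXT group, and values are always listed in that order.

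Mitosis is set in motion when Cdk1 binds cyclin A or cyclin B. Kinases of the Polo and Aurora families then help build the spindle, the kinetochores attach chromosomes to it, the anaphase-promoting complex destroys securin and the cyclins, and motor proteins of the midzone divide the cell. Most of these genes are transcribed together late in the cell cycle, through the DREAM complex, B-Myb and Foxm1, which reach their promoters through CHR elements. CCAAT boxes, bound by NF-Y, are common in the same promoters. Hepatocytes of the adult liver rarely divide, and in an injured liver hepatocytes, macrophages, bile duct cells and stellate cells can all contribute cycling cells.

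Members were scarce in every liver. Their counts summed to between 453 and 4629 read pairs per mouse, or 0.00259% to 0.0161% of all counts on genes. In CPM, the counts per 1e6 counts on genes scaled by TMM factors, the 40 members summed to 84.3, 141.7, 121.7 and 98.35 in AAV8-GFP mice. They summed to 31.27, 56.49, 54.03 and 44.5 CPM in AAV8-AGXT mice. The means were 111.5 ± 25.4 and 46.6 ± 11.4 CPM (SD, n = 4 each), a ratio of 0.418, and no AAV8-AGXT mouse reached the lowest AAV8-GFP mouse. In bulk tissue, fewer cycling cells and less of these RNAs per cell cannot be told apart.

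Library measures were compared first. Counts on genes ranged from 19747909 to 28780140 in AAV8-GFP and from 17095433 to 23940200 in AAV8-AGXT mice (exact permutation test, two-sided, p = 0.171). Mouse 308 had the lowest share of read pairs on genes, 56.3%, against 62.4% to 69.1% in the other 7 mice. This share averaged 65.6 ± 2.53% in AAV8-GFP and 61.5 ± 3.62% in AAV8-AGXT libraries (SD, n = 4 each, exact permutation test, two-sided, p = 0.0857). Read pairs not aligned averaged 2.63 ± 1.02% and 4.63 ± 1.00% (SD, n = 4 each, exact permutation test, two-sided, p = 0.0571). The part of these measures in the levels of the members was not tested. Hepatocyte markers were abundant in all livers, with Alb (albumin) at 25900 to 43400 CPM. Since the transgene is human, the mouse gene Agxt is no direct check of the labels. It stood at 148 to 180 CPM in the control livers and at 202 to 405 CPM in AAV8-AGXT livers.

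The promoters of 35 of the 40 genes were found in the RefSeq table of GRCm38.p6, as 37 windows of 300 bases that run from 250 bases before to 50 after the annotated start. Aurkb, Ccna2, Kif20a, Pbk and Tpx2 were not in it. The 4 shown belong to the members with the smallest p-values whose window held both motifs, and they show how the elements are spaced. Capitals mark the CCAAT box (CCAAT, or ATTGG on the other strand) and the CHR element (TTTGAA, which reads TTCAAA on the other strand, or TTCGAA, which reads the same on both).
Cdk1: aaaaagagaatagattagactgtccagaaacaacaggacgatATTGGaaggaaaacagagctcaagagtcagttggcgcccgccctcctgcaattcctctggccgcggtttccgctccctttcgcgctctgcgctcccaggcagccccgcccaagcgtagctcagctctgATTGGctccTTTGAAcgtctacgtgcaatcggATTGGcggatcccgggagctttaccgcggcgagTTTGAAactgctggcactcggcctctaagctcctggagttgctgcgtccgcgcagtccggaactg
Ube2c: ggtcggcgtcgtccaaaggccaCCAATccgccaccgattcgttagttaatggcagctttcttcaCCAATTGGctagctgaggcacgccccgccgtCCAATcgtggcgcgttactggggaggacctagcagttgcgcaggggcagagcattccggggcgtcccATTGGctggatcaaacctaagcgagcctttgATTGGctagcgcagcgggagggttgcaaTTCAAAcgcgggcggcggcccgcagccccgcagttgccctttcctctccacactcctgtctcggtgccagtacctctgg
Plk1: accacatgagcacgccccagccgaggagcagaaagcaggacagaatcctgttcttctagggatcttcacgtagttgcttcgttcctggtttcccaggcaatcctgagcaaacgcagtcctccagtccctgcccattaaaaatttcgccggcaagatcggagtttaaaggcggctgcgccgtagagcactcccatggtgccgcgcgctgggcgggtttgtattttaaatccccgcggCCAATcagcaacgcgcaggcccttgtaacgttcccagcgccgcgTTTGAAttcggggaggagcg
Cdca3: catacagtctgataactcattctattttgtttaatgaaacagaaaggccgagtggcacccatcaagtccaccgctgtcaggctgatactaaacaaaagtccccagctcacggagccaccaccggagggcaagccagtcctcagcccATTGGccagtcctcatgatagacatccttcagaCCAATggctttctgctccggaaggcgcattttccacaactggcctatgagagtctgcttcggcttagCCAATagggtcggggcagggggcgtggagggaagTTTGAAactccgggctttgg
The windows lie at chr10:69352863-69353162 (Cdk1, minus strand), chr2:164769679-164769978 (Ube2c, plus strand), chr7:122159185-122159484 (Plk1, plus strand) and chr6:124829926-124830225 (Cdca3, plus strand). Cdk1 held 3 CCAAT boxes and 2 CHR elements, the latter 68 and 12 bases before the start. Ube2c, the E2 enzyme of the anaphase-promoting complex, held 6 CCAAT matches, 2 of which overlap in opposite orientations, and 1 CHR element 26 bases before the start. Plk1 had 1 CCAAT box and Cdca3 had 3, and both had 1 CHR element 33 bases after the start.

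A CHR element was present in 30 of the 37 member promoters (81.1%) and in 19.2% of all promoters of the table. The CCAAT box was present in 29 (78.4%), against 37.4% of all promoters, and both motifs stood together in 27 (73.0%), against 7.52%. The contrast was wider close to the start. Within 50 bases of the start, 75.7% of member promoters had a CHR element and 5.31% of all promoters did. In the 50 bases after the start these shares were 51.4% and 2.6%. CCAAT boxes lay further upstream, in 48.6% of member promoters between 50 bases and the start and in 43.2% between 100 and 50 bases upstream, against 9.22% and 12.4% of all promoters. Member promoters had a median GC content of 58.7%, against 52.7%, and base composition was not matched in these shares. The CHR element was first described in promoters of this class, and a match here is a stretch of letters and not a shown binding site.

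**Figure D1:**
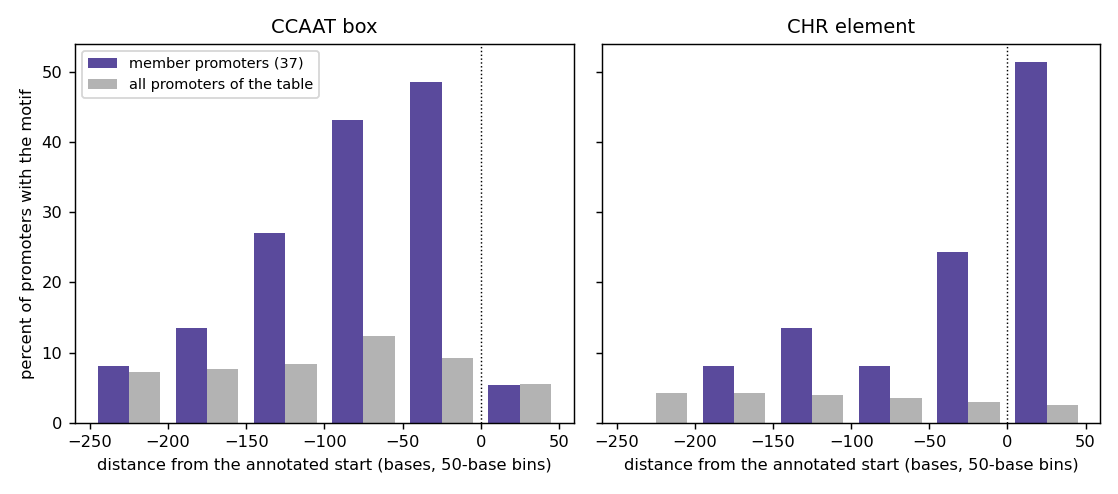
Percent of promoters with a CCAAT box (left) or a CHR element (right) in 50-base bins of distance from the annotated start, for the 37 member promoters (purple) and all promoters of the RefSeq table (grey). CHR elements peak in the bin just after the start, at 51.4% of member promoters against 2.6% of all, and CCAAT boxes peak just before it.

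Other lists of cell cycle genes held these elements less often than the members. Other G2 and M genes came closest, with a CHR element in 62.5% and a CCAAT box in 65.6% of 64 promoters, and both in 45.3%. Both motifs stood in 23.1% of 26 promoters of regulators of cell cycle transcription. For DNA replication genes the share was 16.7% of 30 promoters, where the CCAAT box was frequent (63.3%). None of 17 promoters of anaphase-promoting complex subunits held both, nor did any of the 7 of G1 cyclins and kinases or the 9 of CDK inhibitors. The promoters of Birc5, Melk, Ncaph, Nuf2 and Nusap1 held neither motif, yet Melk and Nusap1 were among the members called lower. Aurka held 2 CCAAT boxes and 1 CHR element, and its levels overlapped between the groups.

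All 37 tested members had a negative log2 fold change (AAV8-AGXT minus AAV8-GFP), beside 47.7% of all tested genes. By edgeR (quasi-likelihood test, p-values adjusted by Benjamini-Hochberg over the 15248 tested genes), 16 members were called lower at an adjusted p under 0.05 and 0 higher, where 1.9% of all genes were called lower and 2.45% higher. By DESeq2, 29 members were called lower (6.38% of all genes) and 0 higher (6.59%), and the 16 were among them. By limma-voom 14 were called lower, all of them among the 16, with Ccnb2 and Kif2c lost. The groups did not overlap for 26 of the 37, with every AAV8-AGXT mouse below every AAV8-GFP mouse, beside 7.63% of all genes, and the reverse held for 0 members, beside 8.93%. The median log2 fold change was -1.34 with a range from -2.21 to -0.29, beside a median of 0.02 over all tested genes. Because the list was drawn up on this contrast, these counts are its description. A gene passed the filter if it had enough counts in 4 libraries, so those high only in AAV8-GFP livers could pass.

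The count of 16 rested on the whole set of mice. It was 0 without mouse 311, 1 without 314, 1 without 319, 6 without 308, 8 without 316, 9 without 303, 11 without 309 and 12 without 315. Without 311, edgeR called 0 genes lower of all those tested. In that fit, 27 of 37 members and 1357 of 15343 genes were lower at an unadjusted p under 0.05. Cdk1 was called in 7 of these 8 fits, Plk1, Cdc20, Ube2c and Cdca3 in 5, and Ccnb1 and Kif2c in 0. Every member fitted kept a negative log2 fold change in each of the 8 fits.

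**Figure D2:**
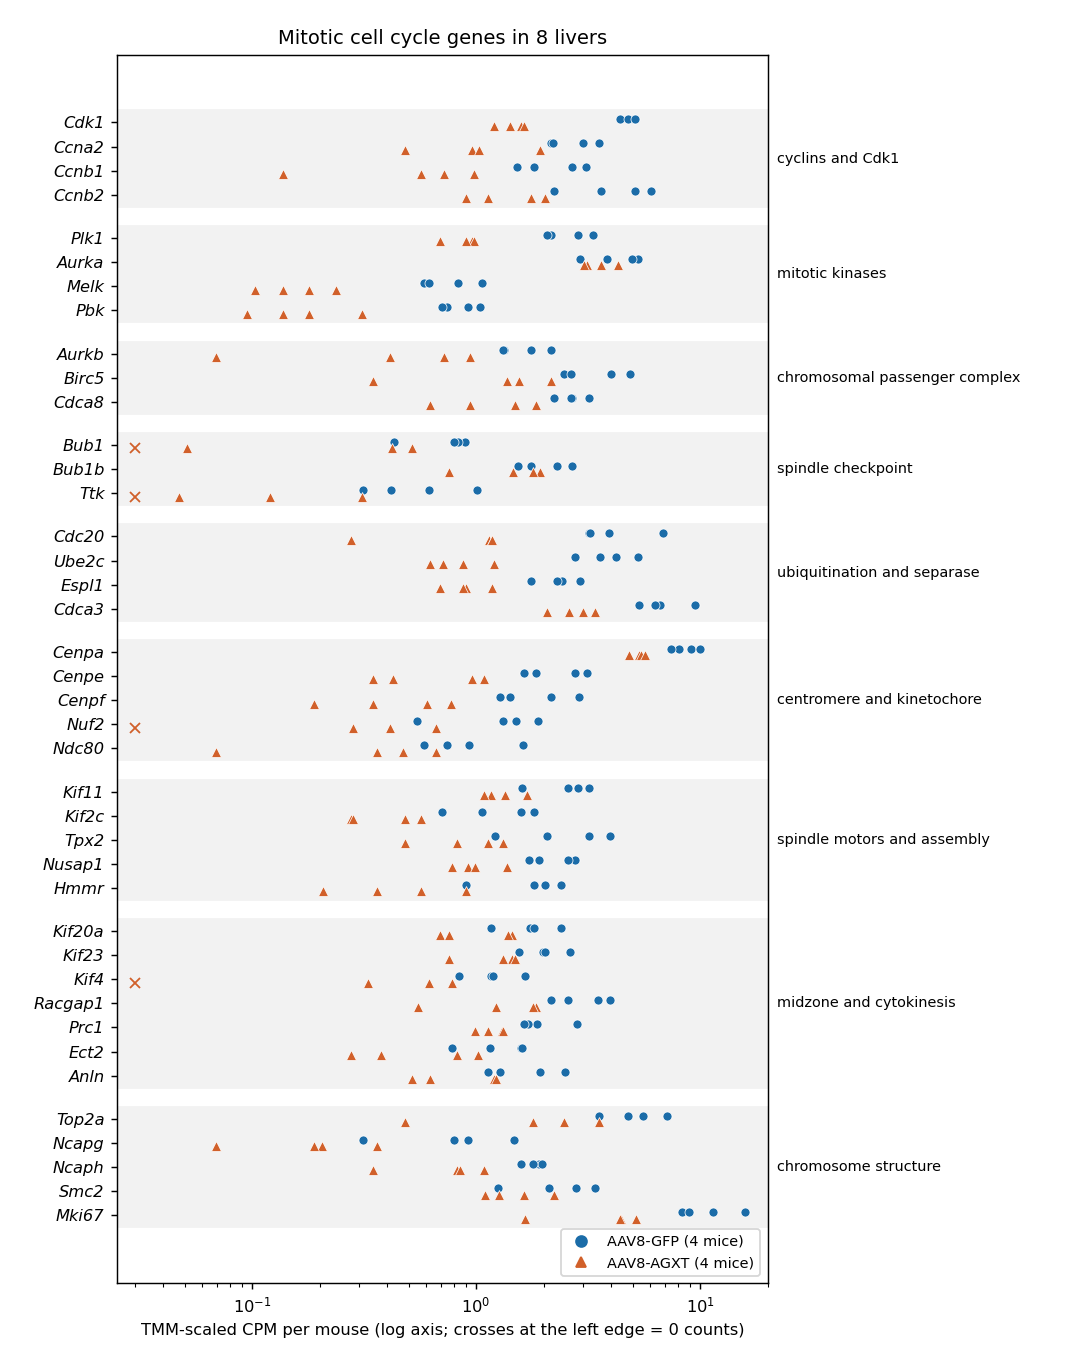
TMM-scaled CPM (log axis) of the 40 members in each mouse, grouped by role, with AAV8-GFP mice as blue circles, AAV8-AGXT mice as orange triangles and mice with 0 counts as crosses at the left edge. Most rows separate into 2 groups without overlap, Aurka being a row where they mix, and 4 members were at 0 in 1 AAV8-AGXT mouse.

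Among the mitotic cyclins and their kinase, 3 of 4 were called lower. Cdk1, the kinase that drives entry into mitosis, stood at 4.37, 5.08, 4.75 and 5.12 CPM in AAV8-GFP livers and at 1.59, 1.20, 1.64 and 1.42 CPM in AAV8-AGXT livers. Its log2 fold change was -1.72 with a standard error of 0.19, and with coefficients of variation of 7.17% and 13.6% it was among the steadiest members within groups. Ccnb1, cyclin B1, stood at 1.52, 2.69, 3.09 and 1.81 against 0.138, 0.721, 0.976 and 0.566 CPM (log2 fold change -1.88, SE 0.44). The lowest value, in mouse 308, was 2 read pairs. Ccnb2, cyclin B2, stood at 2.23, 6.03, 5.12 and 3.62 against 0.897, 2.04, 1.75 and 1.13 CPM (-1.54, SE 0.36). Neither cyclin B gene overlapped between the groups, although both have a processed pseudogene elsewhere in the genome that could take or lend read pairs. Ccna2, cyclin A2, which also acts in S phase, ranged from 2.15 to 3.55 CPM in AAV8-GFP livers and from 0.483 to 1.93 CPM in AAV8-AGXT livers. Its log2 fold change of -1.28 (SE 0.37) was not called by edgeR and was by DESeq2.

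The mitotic kinases held some of the largest differences and also the smallest. Plk1, the Polo-like kinase of centrosome maturation and cytokinesis, stood at 2.15, 3.31, 2.86 and 2.07 CPM against 0.690, 0.961, 0.976 and 0.897 CPM (log2 fold change -1.55, SE 0.26). Melk, an embryonic leucine zipper kinase, stood at 0.586, 0.826, 1.06 and 0.617 against 0.138, 0.180, 0.103 and 0.236 CPM (-2.18, SE 0.40). Pbk, also named Topk, a mitotic MAPKK-like kinase, stood at 0.742, 1.04, 0.923 and 0.706 against 0.138, 0.180, 0.308 and 0.0944 CPM (-2.21, SE 0.40). These 3 were called lower and separated the groups completely. Aurka, the centrosomal Aurora kinase, did not: it stood at 3.83, 5.30, 2.91 and 4.98 CPM against 4.28, 3.12, 3.60 and 3.02 CPM. Its log2 fold change of -0.29 (SE 0.23) was the smallest of all tested members, and in AAV8-GFP livers mouse 314 was the lowest.

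The chromosomal passenger complex, which corrects faulty attachments of chromosomes to the spindle, gave 0 of 3 calls in edgeR, where all 3 had an unadjusted p under 0.05, and 3 of 3 in DESeq2. Aurkb, its kinase, stood at 1.33, 2.17, 1.75 and 1.32 CPM against 0.0690, 0.721, 0.411 and 0.944 CPM (log2 fold change -1.57, SE 0.49). Birc5, or survivin, ranged from 2.46 to 4.84 CPM against 0.345 to 2.16 CPM (-1.34, SE 0.43). Cdca8, or borealin, ranged from 2.23 to 3.18 against 0.621 to 1.86 CPM (-1.12, SE 0.32). All 3 kept the groups apart, and all 3 had their lowest value in mouse 308. Over all genes, 1928 of the 15248 tested were lower at an unadjusted p under 0.05 in edgeR, the background for such counts here and below.

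Of 3 genes of the spindle checkpoint, which delays anaphase until all chromosomes are attached, Bub1 and Ttk had too few counts to test. Bub1b, or BubR1, was the one tested and ranged from 1.54 to 2.68 CPM against 0.759 to 1.92 CPM, with overlap between the groups (log2 fold change -0.47, SE 0.31). Bub1, its sister kinase, did not pass the filter and stood at 0.430, 0.888, 0.830 and 0.794 against 0, 0.421, 0.0514 and 0.519 CPM. Ttk, the kinase Mps1, did not pass either and stood at 0.312, 1.01, 0.415 and 0.617 against 0, 0.120, 0.308 and 0.0472 CPM. DESeq2, whose filter differs, called Ttk lower and left Bub1 uncalled.

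All 4 genes of ubiquitination and sister chromatid release were called lower. Ube2c had the largest difference of the list, at 2.77, 5.26, 4.20 and 3.57 CPM against 0.621, 1.20, 0.873 and 0.708 CPM (log2 fold change -2.21, SE 0.29). Cdc20, which activates the anaphase-promoting complex, stood at 3.20, 6.83, 3.92 and 3.22 against 0.276, 1.14, 1.18 and 1.18 CPM (-2.16, SE 0.41). In both genes mouse 311 was the highest of the AAV8-GFP mice and mouse 308 the lowest of all. Espl1, separase, the protease that cuts cohesin, stood at 1.76, 2.42, 2.91 and 2.29 against 0.690, 0.901, 0.873 and 1.18 CPM (-1.34, SE 0.26). Cdca3, an F-box-like protein that promotes entry into mitosis by way of Wee1 degradation, stood at 5.31, 9.49, 6.64 and 6.31 against 2.07, 3.0, 3.39 and 2.60 CPM (-1.32, SE 0.23). No gene of the 4 overlapped between the groups. Ube2c shares exon bases with Tnnc2 and Cdc20 with Elovl1, each on the opposite strand. Whether counting used strand, and how it treated read pairs on shared bases, is not stated. The counts of both genes are uncertain to that extent.

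Of 5 centromere and kinetochore genes, 3 were called lower. Cenpa, the histone H3 variant that marks centromeres, stood at 9.10, 10, 8.07 and 7.41 CPM against 5.32, 5.47, 5.70 and 4.81 CPM. Its log2 fold change of -0.70 (SE 0.15) was the smallest of the called members, and its spread in AAV8-AGXT mice, 7.06%, the lowest of the list. Cenpe, the kinetochore motor CENP-E, stood at 1.64, 2.75, 3.14 and 1.85 against 0.345, 0.961, 1.08 and 0.425 CPM (-1.72, SE 0.40). Cenpf, a large kinetochore protein, stood at 1.41, 2.88, 2.17 and 1.28 against 0.345, 0.601, 0.770 and 0.189 CPM (-2.02, SE 0.44). The groups stayed apart in these 3 genes. Nuf2 and Ndc80, which together bind spindle microtubules, were not called by edgeR and overlapped, and DESeq2 called Nuf2 lower and left Ndc80 uncalled. Nuf2 ranged from 0.547 to 1.89 CPM against 0 to 0.661 CPM (-1.91, SE 0.62), and Ndc80 from 0.586 to 1.62 against 0.0690 to 0.661 CPM (-1.29, SE 0.52).

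In the group of spindle motors and assembly factors, 2 of 5 were called by edgeR and all 5 by DESeq2. Kif2c, the microtubule-depolymerizing kinesin MCAK, stood at 0.703, 1.81, 1.06 and 1.59 CPM against 0.276, 0.481, 0.565 and 0.283 CPM (log2 fold change -1.67, SE 0.40). It lay just inside the threshold, and Hmmr, a spindle pole protein also known as the hyaluronan receptor RHAMM, lay just outside it (-1.79, SE 0.45). Hmmr stood at 0.898, 2.39, 2.03 and 1.81 against 0.207, 0.901, 0.360 and 0.566 CPM, so its groups touched at 0.898 and 0.901. Nusap1, a microtubule-bundling protein, stood at 1.91, 2.75, 2.58 and 1.72 against 1.38, 0.781, 0.924 and 0.991 CPM (-1.15, SE 0.27). Here mouse 308 was the highest of the AAV8-AGXT mice. Kif11, the bipolar spindle kinesin Eg5, ranged from 1.60 to 3.18 against 1.09 to 1.68 CPM (-0.95, SE 0.27). Tpx2, which activates Aurora A on the spindle, ranged from 1.21 to 3.98 against 0.483 to 1.32 CPM (-1.46, SE 0.42). Both overlapped at the lowest AAV8-GFP mouse, 303.

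The 7 genes of the midzone and of cytokinesis gave 0 calls in edgeR, where 6 had an unadjusted p under 0.05, and 1 in DESeq2, Racgap1, and 4 of the 7 kept the groups apart. Their median log2 fold change was -0.93. Of all 15248 tested genes, 1928 were lower at that unadjusted p. Racgap1, part of centralspindlin, stood at 2.58, 3.95, 3.51 and 2.16 CPM against 0.552, 1.86, 1.80 and 1.23 CPM (log2 fold change -1.15, SE 0.36). Its kinesin partner Kif23 ranged from 1.56 to 2.63 against 0.759 to 1.49 CPM (-0.70, SE 0.28). Prc1, which bundles midzone microtubules, ranged from 1.63 to 2.82 against 0.991 to 1.32 CPM (-0.77, SE 0.26). Kif4, a chromokinesin, ranged from 0.838 to 1.66 against 0 to 0.781 CPM (-1.45, SE 0.58), and it too has a processed pseudogene. The other three overlapped. Kif20a, which carries the passenger complex to the midzone, had a log2 fold change of -0.73 (SE 0.34). Ect2, the exchange factor that activates RhoA for furrowing, had -1.03 (SE 0.43), and Anln, anillin, the scaffold of the contractile ring, had -0.93 (SE 0.38).

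Among 5 genes of chromosome structure, Mki67 was called. Mki67, which coats mitotic chromosomes and is the standard marker of proliferating cells, stood at 8.28, 15.9, 11.4 and 8.95 CPM against 1.66, 4.45, 5.19 and 4.39 CPM (log2 fold change -1.49, SE 0.33). The AAV8-GFP mice were all above the AAV8-AGXT mice, with mouse 308 the lowest. Top2a, the topoisomerase that untangles sister chromatids, stood at 3.55, 5.57, 7.10 and 4.76 against 0.483, 3.55, 2.47 and 1.79 CPM (-1.33, SE 0.44), so mice 303 and 309 were nearly level. The condensin subunit Ncaph ranged from 1.59 to 1.96 against 0.345 to 1.08 CPM (-1.21, SE 0.31) and was next outside the threshold after Hmmr. Smc2, the condensin ATPase, ranged from 1.25 to 3.41 against 1.10 to 2.22 CPM (-0.61, SE 0.35). Ncapg, another condensin subunit, did not pass the filter and stood at 0.312, 0.918, 1.48 and 0.794 against 0.0690, 0.361, 0.205 and 0.189 CPM. DESeq2 called Top2a, Ncapg, Ncaph and Mki67 and left Smc2 uncalled.

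**Figure D3:**
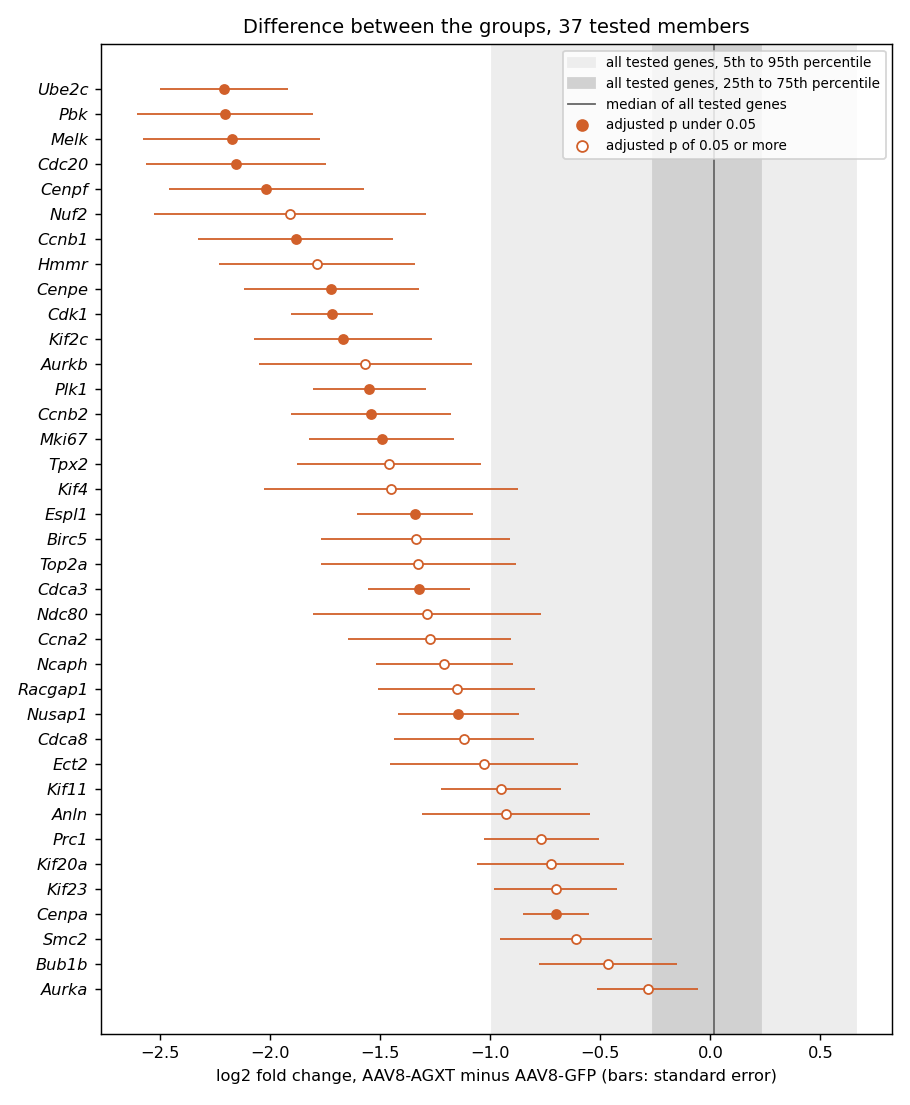
Log2 fold change (AAV8-AGXT minus AAV8-GFP) of the 37 tested members with its standard error, filled where the adjusted p was under 0.05, over the 5th to 95th and 25th to 75th percentile bands of all tested genes. Every point lies below 0, from Ube2c at -2.21 to Aurka at -0.29, and uncalled members appear from -1.91 (Nuf2) to -0.29.

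Per kilobase of annotated exon, the most abundant members in AAV8-GFP livers were Ccnb2 (2.77 CPM per kb), Cdca3 (2.42) and Cdc20 (2.30), and the scarcest were Ttk (0.120) and Ncapg (0.124). In AAV8-AGXT livers Aurka led with 1.38 CPM per kb, above Cdca3 at 0.965 and Ccnb2 at 0.95. The spread between mice of 1 group was wide, with a median coefficient of variation over members of 27.8% in AAV8-GFP and 39.6% in AAV8-AGXT mice. Over 1386 tested genes of like mean count it was 26.8% and 32.3%. Of the 40 genes, 11 share exon bases with another gene, and 12 of the 16 called lower share none.

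The members also shared an order of mice within a group. It was counted inside each group, but from the same values with which the list was proposed, so it is no separate support. In AAV8-GFP livers mouse 311 was the highest for 23 of the 37 tested members and mouse 314 for 12, while mouse 303 was the highest for 0 and the lowest for 25. Over all tested genes mouse 311 was the highest for 19.5% and mouse 303 the lowest for 29.3%. In AAV8-AGXT livers mouse 309 was the highest for 17 and mouse 316 for 14, and mouse 308 was the lowest for 27, against 29.7%, 18.3% and 28.9% of all tested genes. With DESeq2's size factors, upper-quartile normalization or total counts, mouse 311 was the highest for 24 or 25, mouse 303 the lowest for 22 or 24, mouse 309 the highest for 17 and mouse 308 the lowest for 27. The shares over all tested genes move with the scaling. Under total counts mouse 311 was the highest for 29.9% of them and mouse 309 for 36.2%, and mouse 303 was the lowest for 28.8% and mouse 308 for 45.6%. All members are read from the same libraries, so they are not separate observations.

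**Figure D4:**
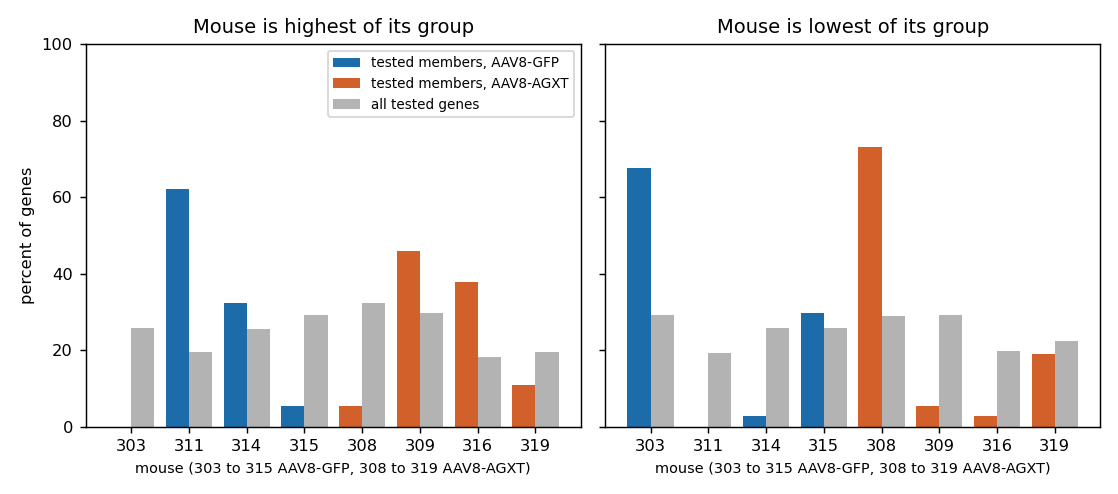
Percent of the 37 tested members for which each mouse was the highest (left) or lowest (right) of its group of 4, beside the same percent over all tested genes (grey). Mouse 311 is most often the highest among AAV8-GFP mice, and mice 303 and 308 are most often the lowest of their groups, beyond their grey bars.

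Other genes of the cell cycle were counted in 6 lists, of which 129 of 151 genes could be tested. By edgeR 10 were called lower and 2 higher, and all 12 calls were lost without mouse 311, 314 or 319. Of 49 tested other G2 and M genes, 8 were called lower and 0 higher, with a median log2 fold change of -0.43, and DESeq2 called 21 lower and 1 higher. All 68 genes summed to 482.1 ± 27.8 CPM (SD, n = 4) in AAV8-GFP livers and 532.6 ± 78.1 CPM (SD, n = 4) in AAV8-AGXT livers, with overlap, a ratio of 1.1 that was 0.931 under total counts. Hjurp, the chaperone of Cenpa, was the most abundant of them and the 1 that DESeq2 called higher, with a log2 fold change of 0.60 in edgeR, where it was not called. Iqgap3, a scaffold of the cell cortex, stood at 2.30, 4.35, 2.54 and 2.16 CPM against 0.276, 1.02, 0.719 and 0.566 CPM (log2 fold change -2.12, SE 0.38, edgeR adjusted p = 0.0309). Mad2l1, the checkpoint protein Mad2, stood at 4.26, 6.12, 6.32 and 5.29 against 3.04, 2.76, 3.08 and 1.93 CPM (-1.03, SE 0.21, edgeR adjusted p = 0.0375). Ckap2l, a spindle protein, fell by 1.90 on the log2 scale (SE 0.38, edgeR adjusted p = 0.0363), and Troap, which also acts in spindle assembly, fell by 1.75 (SE 0.32, edgeR adjusted p = 0.0314). Kif22, Cdca2, Kifc1 and Psrc1 were the other calls. All 8 were below the AAV8-GFP range in every AAV8-AGXT mouse, and with 1 mouse left out the highest adjusted p of each lay between 0.124 and 0.148.

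The anaphase-promoting complex is the ubiquitin ligase that Cdc20 and Ube2c serve. Of 15 genes for its subunits and its activator Cdh1, 0 were called by edgeR or DESeq2, 1 was lower and 0 were higher at an unadjusted p under 0.05 in edgeR, and their log2 fold changes ranged from -0.23 to 0.30 with a median of -0.05. The summed level was 475.6 ± 22.2 CPM (SD, n = 4) in AAV8-GFP livers and 470.5 ± 27.8 CPM (SD, n = 4) in AAV8-AGXT livers, a ratio of 0.989, which was 0.837 and without overlap under total counts with no composition factor. The 1 gene was Anapc2, a catalytic subunit, at 74.3, 71.2, 69.1 and 78.0 against 61.2, 61.1, 67.9 and 58.5 CPM (log2 fold change -0.23, SE 0.09, edgeR adjusted p = 0.135). Anapc1, Cdc26 and Cdc27, which build the scaffold and its arms, had log2 fold changes of 0.17, 0.30 and 0.20. The 9 G1 cyclins and kinases gave 0 calls in either tool, with 0 lower and 1 higher (Ccnd3) at an unadjusted p under 0.05 in edgeR, and sums of 202.6 ± 15.4 and 200.1 ± 7.47 CPM (SD, n = 4 each). Among them Ccnd1, cyclin D1, stood at 21.6, 30.0, 50.4 and 26.7 CPM against 11.6, 29, 22.2 and 35.8 CPM, with overlap (log2 fold change -0.38, SE 0.34, edgeR adjusted p = 0.513). Ccne1, cyclin E1, had a log2 fold change of 0.25 (SE 0.41, edgeR adjusted p = 0.744). The others, Ccnd2, Ccnd3, Ccne2, Cdk2, Cdk4, Cdk6 and Cdc25a, lay between -0.39 and 0.45.

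DNA replication genes, active in S phase, differed in part from the mitotic members. Of 29 tested, 0 were called lower and 1 higher by edgeR, and 2 lower and 1 higher by DESeq2, with a median log2 fold change of -0.18. At an unadjusted p under 0.05 in edgeR 7 were lower, beside 1928 of all 15248 tested genes. Mcm10, a loader of the replication fork, was the one called higher, at 37.3, 50.6, 30.7 and 48.2 CPM against 113, 157, 75.9 and 93.7 CPM (log2 fold change 1.40, SE 0.23, edgeR adjusted p = 0.0278). The groups did not overlap, and the adjusted p ranged from 0.0307 to 0.113 with 1 mouse left out, rising above 0.05 without 303, 311, 314 or 319. Uhrf1, which maintains DNA methylation, stood at 1.29, 2.45, 2.49 and 2.65 against 0.345, 0.961, 1.34 and 0.519 CPM (-1.47, SE 0.41, edgeR adjusted p = 0.0699). Lig1, the replicative DNA ligase, had a log2 fold change of -0.69 (SE 0.17, edgeR adjusted p = 0.0531), and Mcm3, a subunit of the replicative helicase, had -0.51 (SE 0.19, edgeR adjusted p = 0.127). The 30 genes summed to 246.6 ± 14.3 and 296.3 ± 29.1 CPM (SD, n = 4 each), higher in every AAV8-AGXT mouse, but under total counts the groups overlapped at a ratio of 1.02. Mcm10 alone averaged 41.7 and 109.9 CPM of these sums.

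Of 22 regulators of cell cycle transcription, 1 was called lower and 1 higher. Foxm1, the forkhead factor of late cell cycle promoters, stood at 2.26, 2.85, 2.26 and 2.34 CPM against 0.552, 1.02, 0.873 and 0.944 CPM (log2 fold change -1.50, SE 0.25, edgeR adjusted p = 0.0278). Rbl2, or p130, the pocket protein of the repressive DREAM complex, stood at 14.3, 11.2, 11.9 and 15.1 against 22.8, 23.8, 22.5 and 20.4 CPM (0.77, SE 0.12, edgeR adjusted p = 0.0276). Neither overlapped between groups, and without mouse 311 the adjusted p was 0.116 and 0.115, without mouse 314 0.0798 for both, and without mouse 319 0.0774 and 0.0728. Foxm1 shares exon bases with Tex52 and Rbl2 with Aktip. Mybl2, or B-Myb, stood at 1.02, 2.08, 0.876 and 1.15 against 2.21, 0.781, 1.90 and 1.75 CPM, with overlap (0.36, SE 0.38, edgeR adjusted p = 0.588). Subunits of NF-Y, the CCAAT binding factor, had log2 fold changes of -0.23 (Nfya), 0.11 (Nfyb) and -0.12 (Nfyc). The activator E2f1 had -0.51 (SE 0.18, edgeR adjusted p = 0.111), E2f2 had -1.09 (SE 0.28, edgeR adjusted p = 0.0545), and E2f8, an atypical repressor, had 0.90 (SE 0.43, edgeR adjusted p = 0.22). The 20 uncalled regulators lay between those last 2 values, among them E2f3 to E2f7, Tfdp1, Tfdp2, Rb1, Rbl1, Lin9, Lin37, Lin52 and Lin54, and DESeq2 also called E2f2 lower and E2f6 and Tfdp2 higher.

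Among 7 CDK inhibitors, 5 could be tested, and edgeR called 1 lower and DESeq2 2, Cdkn1a and Cdkn2c. Cdkn1a, or p21, which halts the cycle after DNA damage, stood at 142, 149, 127 and 149 CPM against 81.7, 96.1, 67.8 and 48.6 CPM (log2 fold change -0.95, SE 0.19, edgeR adjusted p = 0.0349). Every AAV8-AGXT mouse was below every AAV8-GFP mouse. With 1 mouse left out the adjusted p ranged from 0.0243 to 0.126, and it rose above 0.05 without 303, 311, 314, 308, 316 or 319. Cdkn2c, or p18, had a log2 fold change of -0.87 (SE 0.29, edgeR adjusted p = 0.103) and Cdkn1b, or p27, -0.23 (SE 0.20, edgeR adjusted p = 0.488). Cdkn1c and Cdkn2d had -0.17 and -0.23, and Cdkn2a and Cdkn2b had too few counts to test. The 7 genes summed to 185.6 ± 6.98 and 108.0 ± 26.3 CPM (SD, n = 4 each), of which Cdkn1a averaged 141.7 and 73.5 CPM.

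Markers of cell types were summed in the same livers. The 8 markers of lipid-associated and infiltrating macrophages summed to 264 to 406 CPM in AAV8-GFP livers and 46.5 to 255 CPM in AAV8-AGXT livers, a ratio of 0.457 with no overlap. All 8 had negative log2 fold changes, and 1, Cd9, was called lower (edgeR adjusted p = 0.0298, and up to 0.126 with 1 mouse left out, rising above 0.05 without 303, 311, 314 or 319). Cd9, a tetraspanin, was singled out after its value was seen. This sum ordered the AAV8-GFP mice as the member sum did, from 311 over 314 and 315 to 303. The match was singled out among the marker sums after their values were seen. In AAV8-AGXT mice the orders differed. Mouse 316 (254.7 CPM) was above 309 (160.6 CPM) in the macrophage sum, and 309 (56.49 CPM) above 316 (54.03 CPM) in the member sum. Mouse 308 was the lowest of the AAV8-AGXT mice in both. Mouse 308 was also the lowest of its group in the Kupffer cell, T and NK cell, neutrophil, stellate cell and cholangiocyte sums. It was not the lowest in the B and plasma cell sum, and was the highest in the hepatocyte, sinusoidal endothelium and erythroid sums. The 6 cholangiocyte markers summed to 26.6 to 73.2 against 14.8 to 38.0 CPM, the 8 T and NK cell markers to 10.2 to 17.7 against 4.76 to 13.1 CPM, and the 8 stellate cell and fibroblast markers to 490 to 842 against 246 to 576 CPM, each with overlap. The ratios of the group means were 0.439, 0.561 and 0.614. All 6 cholangiocyte markers had negative log2 fold changes (median -1.24), with 0 called by edgeR and 4, Krt7, Epcam, Sox9 and Muc1, by DESeq2. In edgeR 5 were lower at an unadjusted p under 0.05, beside 1928 of all 15248 tested genes. At that p, 5 macrophage, 5 stellate and fibroblast, 3 T and NK cell, 1 Kupffer cell and 1 neutrophil marker were lower too. Higher at it were 2 hepatocyte, 2 Kupffer cell and 2 erythroid markers. DESeq2 also called lower 4 macrophage, 2 T and NK cell, 2 stellate and fibroblast and 1 neutrophil marker, beside 6.38% of all genes. It called higher 1 Kupffer cell and 1 erythroid marker, beside 6.59%. Of the stellate and fibroblast markers 6 of 8 were negative and edgeR called 1, Acta2 (smooth muscle actin), lower (adjusted p = 0.0427, and above 0.05 without any 1 of the 8 mice, up to 0.116). These markers too were named after their values were seen. Kupffer cell, B and plasma cell, neutrophil, sinusoidal endothelium and erythroid sums overlapped as well. Hepatocyte markers summed to 60860 to 70140 against 71370 to 100200 CPM, higher in every AAV8-AGXT mouse. Alb averaged 30000 and 37990 CPM of these sums. Taken singly, each of the 8 markers overlapped between the groups, and 0 were called by edgeR or DESeq2. Under total counts the hepatocyte sums overlapped too, at a ratio of 1.06. The member and macrophage sums stayed apart under that scaling, at ratios of 0.358 and 0.4. So did the CDK inhibitor sum, at 0.497, and the neutrophil sum was apart under it too, at 0.475. No marker was at 0 in all 8 mice. The neutrophil marker Ly6g was at 0 in 7 of them. The part of cell makeup in the levels of the mitotic genes was not tested.

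**Figure D5:**
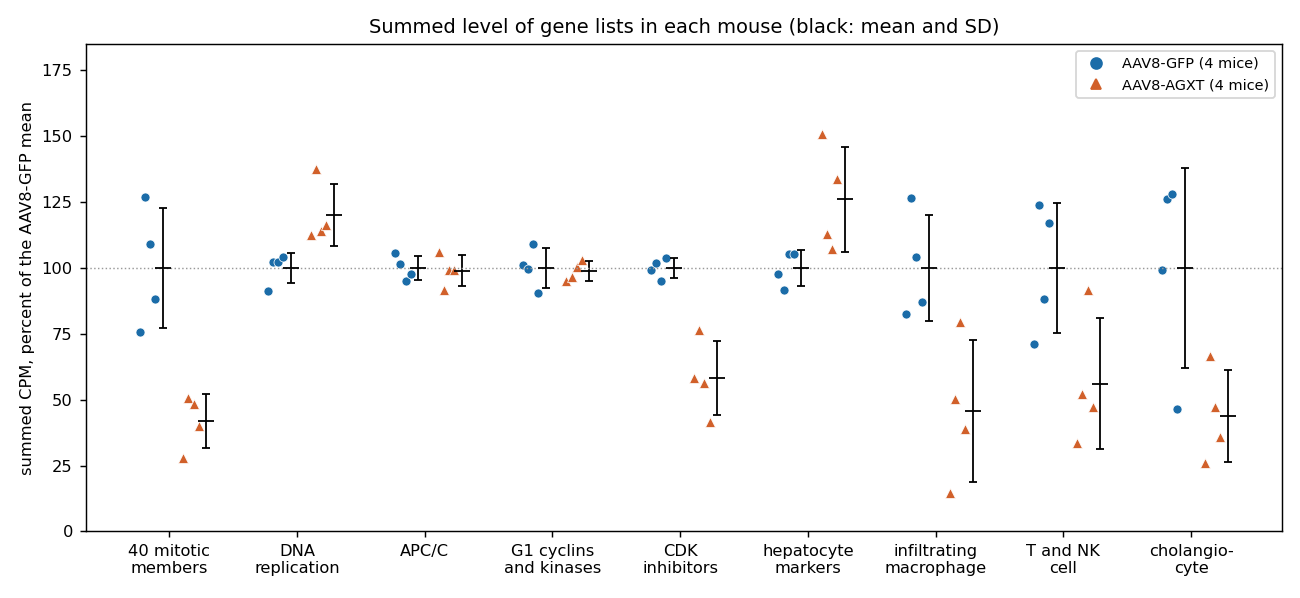
Summed CPM of gene lists in each mouse as percent of the AAV8-GFP mean, with AAV8-GFP mice as blue circles, AAV8-AGXT mice as orange triangles, and the mean and SD in black. The 40 members lie at 28.0% to 50.7% in AAV8-AGXT mice, infiltrating macrophage markers and CDK inhibitors are also lower, and the anaphase-promoting complex (APC/C) and G1 lists overlap between the groups on this scale.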

How the data were processed

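Per the labels and the study's methods, the authors prepared stranded mRNA libraries from whole liver, used Trimmomatic 0.35 for trimming, HISAT2 2.1.0.13 for mapping to GRCm38 with the Ensembl release 90 annotation, and HTSeq for gene counts of read pairs. The deposited values are raw counts, neither normalized nor filtered, and the strand option of the counting is not given in the sources used here. The authors tested expression with DESeq2. Here, genes were matched to GENCODE M21 (52489 of 52636) and tested in R 4.3.3 with edgeR 4.0.16 (filterByExpr, TMM, quasi-likelihood test, treatment as the only term, Benjamini-Hochberg adjustment over 15248 genes). DESeq2 1.42.0, limma-voom (limma 3.58.1), other scalings, other filters and each mouse left out in turn were alternatives. Log2 fold changes used edgeR's prior count of 0.125. The scripts were tested on simulated data. At a common biological coefficient of variation of 23.3% the spread between mice limits abundant genes, and counting error the scarcest.

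The 40 members and the lists were chosen with earlier results of these data known. Genes named were all members, the regulators, G1 genes and CDK inhibitors, and of the other lists at most 4 with the smallest p, any further ones in the text being named after their values were seen.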

Additional observations from a re-analysis of the deposited data

Results flagged for a closer look

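Of 182 groups of 4 mice examined, each for 1 gene or summed list, 7 had a mouse far from the other three of its group, where chance alone flags about 1 group in 20. The number flagged is not above that rate. Among members this was Cdc20 in mouse 308 of AAV8-AGXT, at 0.276 CPM while the others stood at 1.14 to 1.18 CPM. Among regulators, Foxm1 was high in mouse 311 of AAV8-GFP, at 2.85 CPM against 2.26 to 2.34 CPM, and E2f2 was high in mouse 315, at 3.88 CPM against 2.46 to 2.60 CPM. E2f8 stood at 35.8 CPM in mouse 309 of AAV8-AGXT, with 7.65 to 12.4 CPM in the others. In mouse 319 of the same group, Lin52 stood at 8.87 CPM against 6.49 to 6.68 CPM and Ccne1 at 3.44 CPM against 1.18 to 1.52 CPM. Uhrf1 was low in mouse 303 of AAV8-GFP, at 1.29 CPM against 2.45 to 2.65 CPM.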

How the results depend on the processing

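No paired analysis was possible because the groups share no replicate numbers. With DESeq2, 1034 genes were called lower and 1068 higher, with 29 members lower and 27 genes of the other lists lower and 5 higher. With total counts and no composition factor the calls were 857 lower and 144 higher, with 19 of the other lists lower, and the median log2 fold change of all genes moved from 0.02 to -0.22. The share of calls that were higher was 56.3% with TMM, 46.0% with upper-quartile normalization and 14.4% with total counts. With 1 mouse left out, calls ranged from 0 to 325 lower and from 2 to 379 higher over all genes, from 0 to 12 lower among members, from 0 to 9 lower and from 0 to 3 higher in the other lists. The lowest counts came without 311, 314 or 319. The cause was not tested. Every member fitted had a negative log2 fold change in all settings run, and 0 were called higher in any. The log2 ratio of the summed members was -1.26, and -1.11 to -1.48 under the alternatives.

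Log2 fold changes that turned sign were all of genes not called. With total counts these were Anapc1 (-0.070), Cdc27 (-0.034), E2f3 (-0.21), E2f5 (-0.11), Tfdp1 (-0.11), Lin52 (-0.035), Lin54 (-0.0069), Nfyb (-0.13), Ccnd3 (-0.017), Ccne1 (-0.0065), Cdk2 (-0.18) and Cdk6 (-0.14). With upper-quartile normalization E2f3 was at -0.042 and Cdk2 at -0.011, and with no filter E2f3 was at -0.00057. With 1 mouse left out, E2f3 ranged from -0.079 to 0.16, at -0.079 (without 311), -0.0066 (314), -0.0077 (315) and -0.068 (316), Ccne1 ranged from -0.26 (319) to 0.47, Cdk2 reached 0.17 and was at -0.038 (314), -0.0061 (308) and -0.062 (316), and Cdkn1c ranged from -0.37 up, at 0.081 (303) and 0.026 (319). Counting error is largest for the scarcest members. Mouse 308 had 0 counts for 4 members, and it also had the lowest share of read pairs on genes, 56.3%. The part of the library in these zeros was not tested.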
